A study of Homo sapiens with 9 samples.

Results

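The 40 genes described here are established direct targets of the transcription factor p53 that lie outside its best-known target families, the cyclin-dependent kinase inhibitors, excision repair genes, sestrins, death receptors and BCL2 relatives. They were listed by name, with no threshold on their values but with earlier results of these data known. They are 40 of the 26475 gene symbols in the count table. Messenger RNA was measured by RNA sequencing in A375, an established human melanoma cell line. For 24 h the cells were kept in the vehicle DMSO or in TP-472 at 5 or 10 µM. Each group has 3 libraries, described as biological replicates, and all 9 come from this single line. TP-472 blocks the acetyl-lysine-binding bromodomains of BRD9 and BRD7, which are subunits of SWI/SNF chromatin-remodelling complexes.

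p53 is held at low levels by constant degradation and accumulates when DNA is damaged, ribosome assembly fails or other stress is sensed. It then binds as a tetramer to an element made of a pair of similar half-sites and raises transcription of nearby genes. The genes that it activates slow the cell cycle, aid DNA repair, alter metabolism, feed signals to neighbouring cells and promote cell death, and some of them limit p53 itself. BRD7 has been described as a p53 partner. The measurements below are of target mRNA, and neither p53 protein nor its binding to DNA was measured in these libraries.

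An expected count is the number of reads that the counting program assigns to a gene, and CPM is that count scaled to library size with TMM factors. A gene was called higher or lower where edgeR's quasi-likelihood F test gave a Benjamini-Hochberg adjusted p under 0.05 over all 16417 genes that passed the expression filter. Totals ran from 42483091 to 51298130 counts per library. The replicate 1 library at 10 µM stood apart from its group. Its median absolute log2 deviation from the mean of the other libraries at that dose was 0.322, against 0.190 and 0.199 for those 2 libraries and 0.0606 to 0.0997 for the DMSO and 5 µM libraries, and calls that change without it are given with and without it. Ribosomal RNA genes took 8.79–10.9% of each DMSO library, 10.6–16.6% of each 5 µM library and 8.20–19.9% of each 10 µM library. SOX10, CSPG4 and PRAME, which mark melanoma cells, were abundant, whereas the pigment-cell gene TYR was at 0 in every library and MLANA reached at most 0.346 CPM. The 12 melanoma and melanocyte markers summed to 1379–1393 CPM in DMSO, 1089–1125 in the 5 µM and 828–893 in the 10 µM libraries. Most of this fall came from CSPG4, which averaged 704, 446 and 229 CPM in that order, whereas SOX10 averaged 417, 413 and 391 CPM. Among these markers only CSPG4 and S100A1 were called at 10 µM, both lower. The 4 immune markers summed to 0.103–0.423, 0.197–0.308 and 0.367–1.55 CPM in the same order, with 2 of the 4 at 0 in all libraries. The 4 fibroblast markers summed to 28.03–29.98, 17.9–20.5 and 9.94–14.6 CPM. Endothelial markers summed to at most 3.70 CPM and epithelial markers to at most 10.9 CPM in any library. The part of these shifts in the results below was not tested.

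The sequences below show where a p53-type element was found close to the start of these genes. A window from 250 bases before to 50 bases after each annotated start (RefSeq, GRCh38.p14) was available for 33 of the 40 genes and was searched for 2 adjacent p53 half-sites with no spacer, both CNNG cores intact and at most 3 mismatches in 20 bases. The consensus reads the same on both strands, so 1 pass covers both. A match was held by 7 of the 33 genes (21.2%), against 373 of 27305 genes with a window (1.37%) and 192 of 11784 genes that were both tested and had a window (1.63%). Genes enter such lists partly because p53 binds near them, so this share is a description of the list. The capitals mark the 20 matched bases and lower case the flanks.
AEN: gagccGGGCTTGCCCGGGCATGTGGgagct
HSPA4L: catggAAACATGTTTCCACATGTTCcgttg
DCP1B: gcagaGGGCAGGCCTGGGCTTGTCGttgcc
PANK1: gtggcGGGCAGGACTGGGCATGCTCagtgg
CES2: aaagtGGCCGTGCCCGGGCCTGCCTaccac
GDF15: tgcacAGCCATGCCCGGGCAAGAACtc
RPS27L: aggagGGCCTAGAGCAGACAAGCCCgcccc
With its flanks, the AEN sequence lies at chr15:88621301-88621330 on the plus strand, HSPA4L at chr4:127783504-127783533 (plus), DCP1B at chr12:2004645-2004674 (minus), PANK1 at chr10:89645251-89645280 (minus), CES2 at chr16:66935397-66935426 (plus), GDF15 at chr19:18386181-18386207 (plus) and RPS27L at chr15:63157522-63157551 (minus). AEN, HSPA4L, DCP1B and PANK1 matched the consensus at 18 of 20 positions, and CES2, GDF15 and RPS27L at 17. All but the GDF15 match begin upstream of the RefSeq start. The GDF15 match begins 28 bases past it, inside the transcribed sequence and close to the end of its window. These positions hold for the RefSeq starts alone. In GENCODE v29, gene spans can start farther upstream, and every match except that of DCP1B lies inside the span of its gene. A match in these letters does not show a bound site. A missing match says only that such letters are not in the window, and many p53 elements lie in first introns or farther away.

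Most of these genes were higher after TP-472. At 5 µM, 29 of the 39 genes that passed the filter were higher than in DMSO, 23 of them by at least 1.5-fold, and none was lower. None of the 39 was lower at 5 µM at an unadjusted p under 0.05 either, nor with DESeq2 or limma-voom, but ORAI3 was called lower in the fit without 10 µM replicate 1 (adjusted p = 0.0203) and with only the 2 groups compared (adjusted p = 0.0108). At 10 µM, 32 were higher, 27 of them by at least 1.5-fold, and 2 were lower, TNFAIP8 and ORAI3. Among all genes tested, 4.40% were called higher at 5 µM, 2.14% by at least 1.5-fold, and 5.81% lower. For 10 µM these shares were 16.4%, 8.57% and 18.0%. Because the genes were listed with earlier results of these data known, the counts describe this list. Over the 39 genes, log2 fold changes had a median of 0.70 at 5 µM and 0.78 at 10 µM, against 0.0054 and 0.011 over all genes tested. Every 5 µM library lay above every DMSO library for 35 of the 39 genes, where 23.7% of all genes did so, and every 10 µM library did for 31, where 23.4% of all genes did so. Both comparisons use the same 3 DMSO libraries and are therefore not independent of each other. Without replicate 1 at 10 µM, in which case 16.5% and 23.0% of all genes were called higher at the 2 doses, 34 and 33 of the 39 genes were called higher. The 5 added at 5 µM were E2F7, RAP2B, CSNK1G1, PANK1 and DCP1B, and the 1 added at 10 µM was E2F7. Values are relative to the whole library, so an altered amount of RNA per cell, or a shift in which cells survived, cannot be told apart from altered transcription. SPATA18, a mediator of mitochondrial quality control, is the gene that did not pass the filter. It had 0 counts in 7 libraries, 10 counts in the 5 µM replicate 2 library and 11 counts in the 10 µM replicate 3 library.

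**Figure D1:**
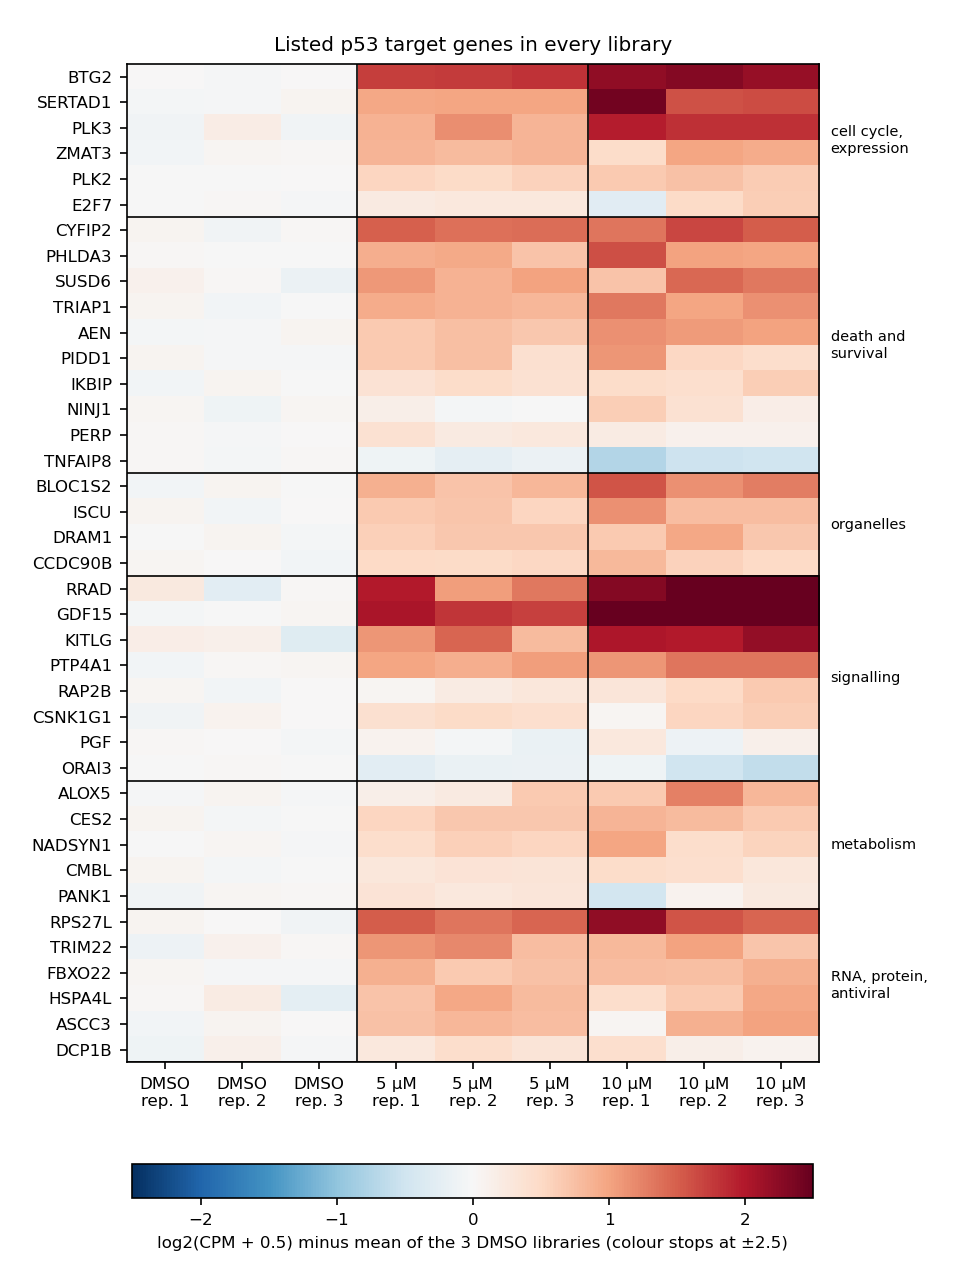
Heat map of the 39 tested genes (rows, grouped by role, without SPATA18) in the 9 libraries (columns), with colour showing log2(CPM + 0.5) minus the DMSO mean of the same gene on a scale that stops at -2.5 and 2.5. Most rows turn to the colour of higher values in all 6 TP-472 libraries, TNFAIP8 and ORAI3 turn the other way, and the replicate 1 library at 10 µM differs from its group for genes such as E2F7 and ASCC3.

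Of the 6 genes that restrain the cell cycle or regulate gene expression, 5 were higher at both doses. BTG2, an antiproliferative adaptor that recruits the CCR4-NOT deadenylase to mRNA (chromosome 1, 203305491 to 203309602, plus strand, GRCh38), had replicates within a narrow range. It stood at 21.1, 20.5 and 21.2 CPM in the DMSO libraries, 70.6, 71.3 and 74.9 CPM at 5 µM and 99.7, 104 and 96.8 CPM at 10 µM. The 3 groups did not overlap, and BTG2 rose 3.45-fold at 5 µM (log2 fold change 1.79 ± 0.07 SE, adjusted p = 1.97e-06) and 4.79-fold at 10 µM (2.26 ± 0.07, adjusted p = 5.00e-08). PLK3, a stress-responsive polo-like kinase, measured 13.7, 16.6 and 13.6 CPM in DMSO, 26.99, 33.2 and 26.6 in the 5 µM libraries and 58.5, 52.99 and 52.9 in the 10 µM libraries. The PLK3 groups were also fully separated, with log2 fold changes of 0.98 ± 0.12 (adjusted p = 0.000812) and 1.91 ± 0.12 (adjusted p = 2.88e-06). SERTAD1, a regulator of CDK4 and E2F-dependent transcription, measured 14.3, 14.4 and 15.6 CPM in DMSO, 29.3, 29.7 and 29.7 in the 5 µM libraries and 80.4, 45.4 and 47.03 in the 10 µM libraries, the first of the 10 µM values coming from the library that stood apart. Its log2 fold changes were 1.00 ± 0.19 (adjusted p = 0.0100) and 1.96 ± 0.20 (adjusted p = 6.14e-05), the latter 1.64 without that library. The 5 µM call for SERTAD1 was lost without DMSO replicate 1 (adjusted p = 0.0532) or DMSO replicate 2 (adjusted p = 0.0531). PLK2, another polo-like kinase, rose by 0.53 and 0.67 on the log2 scale at the 2 doses, and ZMAT3, a p53-induced RNA-binding protein that affects splicing, by 0.84 and 0.82.

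E2F7, an atypical E2F that represses cell-cycle genes, is the gene of this group that was not called at either dose. Its values were 48.1, 49.1 and 47.4 CPM in DMSO, 56.2, 57.7 and 58.1 in the 5 µM libraries and 39.8, 66.9 and 74.1 in the 10 µM libraries, so that 5 of the 6 TP-472 libraries lay above all DMSO libraries and the replicate 1 library at 10 µM lay below them. The log2 fold changes were 0.25 (adjusted p = 0.467) and 0.32 ± 0.18 (adjusted p = 0.205). Without that library E2F7 passed the test at both doses, with 0.25 (adjusted p = 0.00137) and 0.55 (adjusted p = 9.23e-07).

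**Figure D2:**
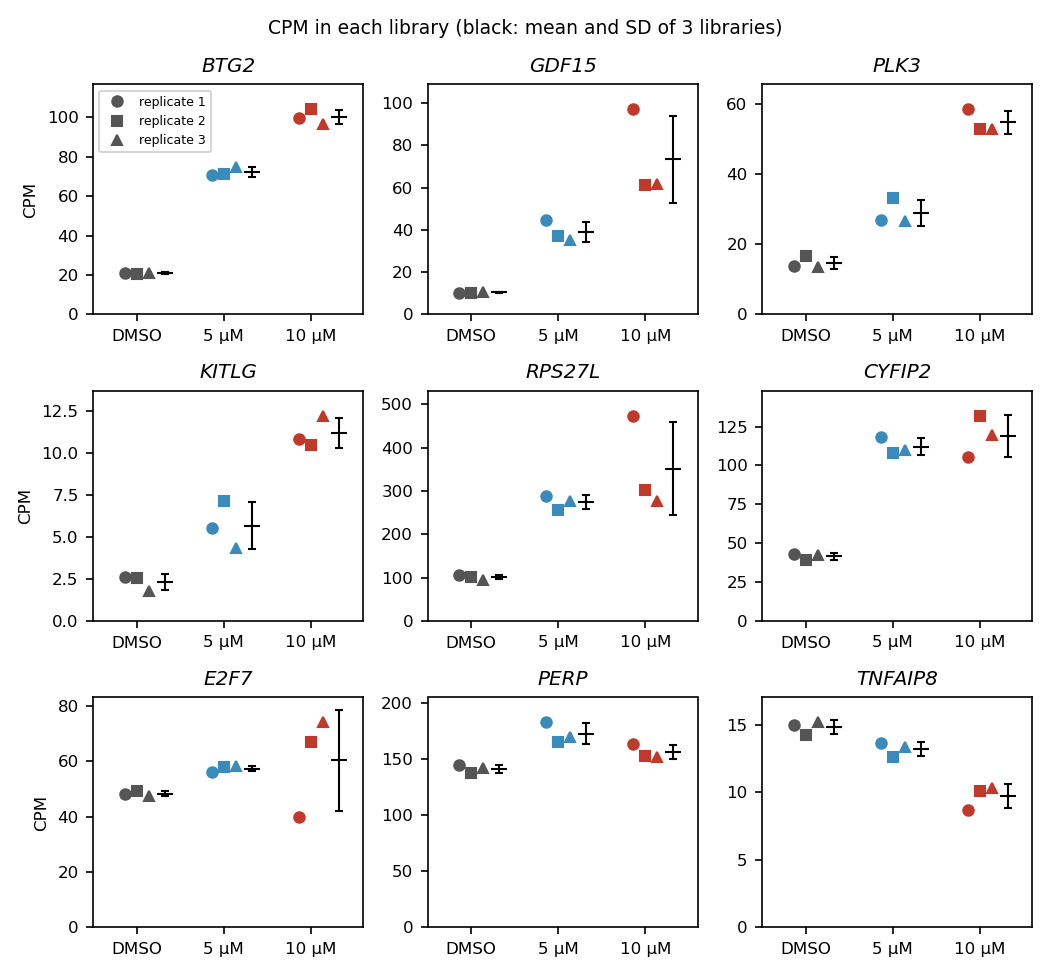
CPM (vertical axis, from 0) in each of the 9 libraries for BTG2, GDF15, PLK3, KITLG, RPS27L, CYFIP2, E2F7, PERP and TNFAIP8, with points for libraries and bars for mean ± SD of the 3 libraries at 0, 5 and 10 µM TP-472. BTG2 and PLK3 separate into 3 levels, the CYFIP2 values at the 2 doses overlap, GDF15 and RPS27L have 1 high library at 10 µM, and TNFAIP8 is lower at 10 µM.

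Of the 10 genes of cell death and survival, 8 were higher at 5 µM and 8 at 10 µM, and TNFAIP8 was lower at 10 µM. CYFIP2, a p53-inducible partner of the WAVE actin-regulatory complex, measured 43.3, 38.95 and 42.1 CPM in DMSO, 118, 108 and 109.9 in the 5 µM libraries and 105, 132 and 119 in the 10 µM libraries. The treated libraries lay far above DMSO while the doses overlapped, with log2 fold changes of 1.43 ± 0.10 (adjusted p = 3.02e-05) and 1.52 ± 0.10 (adjusted p = 3.14e-06). PHLDA3, a pleckstrin-homology protein that competes with AKT for membrane lipids, measured 116, 113 and 114 CPM, then 215, 219.8 and 187 CPM, then 352, 229.8 and 225 CPM. It rose by 0.86 ± 0.16 (adjusted p = 0.00743) and by 1.24 ± 0.16 (adjusted p = 0.000271) on the log2 scale, the latter 0.99 without replicate 1 at 10 µM. SUSD6, a sushi-domain membrane protein induced by DNA damage, stood at 10.7, 10.2 and 8.89 CPM in DMSO, 21.5, 18.5 and 20.3 in the 5 µM libraries and 16.6, 27.5 and 25.3 in the 10 µM libraries, all 6 TP-472 values above all DMSO values. The corresponding log2 fold changes were 1.02 ± 0.17 (adjusted p = 0.00554) and 1.22 ± 0.17 (adjusted p = 0.000549). AEN, an exonuclease that digests DNA and RNA in dying cells and whose consensus match is printed above, measured 84.6, 85.6 and 90.7 CPM in DMSO, 138, 146 and 138 in the 5 µM libraries and 193, 182 and 174 in the 10 µM libraries. AEN therefore rose in 2 separated steps, with log2 fold changes over DMSO of 0.70 ± 0.07 (adjusted p = 0.000321) and 1.08 ± 0.07 (adjusted p = 4.05e-06).

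Genes with pro-survival and with pro-death roles were among those that rose. TRIAP1, which limits apoptosome formation and moves lipids within mitochondria, rose by 0.89 and 1.16 on the log2 scale. PIDD1, the scaffold of the caspase-2-activating PIDDosome, rose by 0.62 (adjusted p = 0.0482) and 0.73 (adjusted p = 0.00908), and IKBIP, an endoplasmic reticulum protein reported to promote apoptosis, by 0.40 and 0.51. The 5 µM call for PIDD1 was lost when any 1 DMSO or 5 µM library was left out, and that for IKBIP without DMSO replicate 1, DMSO replicate 3 or 5 µM replicate 2. NINJ1, which executes plasma membrane rupture, had a log2 fold change of 0.03 at 5 µM (adjusted p = 0.912) and was called at 10 µM (0.41, adjusted p = 0.0280), a call that was lost without any 1 DMSO library or 10 µM replicate 2. PERP, a desmosomal protein and apoptosis effector, measured 144, 137 and 142 CPM in DMSO, 183, 165 and 169 in the 5 µM libraries and 163, 153 and 152 in the 10 µM libraries. It was called at 5 µM (0.29 ± 0.07, adjusted p = 0.0269), a call lost without any 1 DMSO or 5 µM library, and not at 10 µM (0.15, adjusted p = 0.131). TNFAIP8, an inhibitor of caspase-dependent death, was the gene that went the other way. It measured 14.99, 14.2 and 15.2 CPM in DMSO, 13.6, 12.6 and 13.3 in the 5 µM libraries and 8.68, 10.1 and 10.3 in the 10 µM libraries, with all TP-472 libraries below all DMSO libraries. The log2 fold change was -0.16 at 5 µM (adjusted p = 0.368) and -0.61 ± 0.10 at 10 µM (adjusted p = 0.00140).

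All 4 tested genes of autophagy and organelles were higher at both doses. BLOC1S2, a subunit of complexes that position lysosomes and build lysosome-related organelles such as melanosomes, measured 30.6, 33.8 and 32.03 CPM in DMSO, 59.9, 53.01 and 57.7 in the 5 µM libraries and 96.7, 71.1 and 79.1 in the 10 µM libraries. The 3 groups did not overlap, and its log2 fold changes were 0.82 ± 0.11 (adjusted p = 0.00172) and 1.36 ± 0.11 (adjusted p = 1.94e-05). DRAM1, a lysosomal membrane protein that promotes autophagy, rose by 0.65 and 0.78, ISCU, the scaffold for iron-sulfur cluster assembly, by 0.64 and 0.91, and CCDC90B, a mitochondrial inner-membrane protein, by 0.50 and 0.64 on the log2 scale. The 5 µM call for CCDC90B was lost without DMSO replicate 3 (adjusted p = 0.0515).

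Of the 8 secreted and signalling genes, 4 were higher at 5 µM and 6 at 10 µM, and ORAI3 was lower at 10 µM. GDF15, a stress-induced TGF-beta family cytokine (chromosome 19, 18374731 to 18389176, plus strand, GRCh38), measured 10.1, 10.3 and 10.8 CPM in DMSO, 44.4, 37.3 and 35.2 in the 5 µM libraries and 97.1, 61.3 and 61.8 in the 10 µM libraries, with no overlap between groups. It rose 3.75-fold at 5 µM (log2 fold change 1.91 ± 0.18, adjusted p = 0.000214) and 7.06-fold at 10 µM (2.82 ± 0.18, adjusted p = 3.96e-06), the latter 5.91-fold without the library that stood apart. KITLG, the ligand of the KIT receptor on which melanocytes depend, measured 2.64, 2.55 and 1.77 CPM, then 5.52, 7.17 and 4.35 CPM, then 10.9, 10.5 and 12.2 CPM. The low values again formed 3 separate groups, and the log2 fold changes were 1.29 ± 0.22 (adjusted p = 0.00488) and 2.27 ± 0.22 (adjusted p = 4.79e-05). RRAD, a small GTPase that regulates calcium channels and glucose uptake, was nearly silent in DMSO at 0.241, 0.0206 and 0.142 CPM and measured 1.97, 0.794 and 1.07 CPM at 5 µM and 2.58, 3.31 and 3.36 CPM at 10 µM. These rest on 19 counts over the DMSO libraries, 183 at 5 µM and 462 at 10 µM, whose library-scaled ratios to DMSO were 9.28 (95% counting interval 5.77 to 15.8) and 22.9 (14.5 to 38.3), with adjusted p = 0.00919 and 0.000459. PTP4A1, a membrane-associated tyrosine phosphatase, measured 138, 148 and 149 CPM in DMSO, 289, 274 and 301 in the 5 µM libraries and 310.2, 369 and 365 in the 10 µM libraries. Its groups were separated and its log2 fold changes were 0.99 ± 0.08 (adjusted p = 0.000108) and 1.26 ± 0.09 (adjusted p = 4.89e-06), although 79.0% of its exonic bases are shared with another annotated gene on the same strand (GENCODE v29), so its reads may not all be its own.

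The other signalling genes had smaller fold changes. RAP2B, a RAS-related GTPase, was called at 10 µM (0.50, adjusted p = 0.00449) and not at 5 µM (0.18, adjusted p = 0.317, or 0.0465 without 10 µM replicate 1). CSNK1G1, a membrane-tethered casein kinase, had log2 fold changes of 0.44 (adjusted p = 0.0676) and 0.43 (adjusted p = 0.0329), and its 10 µM call was kept in only 1 of the 9 fits that left out a library, the one without 10 µM replicate 1. In that fit CSNK1G1 was called at 5 µM too (adjusted p = 1.56e-05), as it was with DESeq2 (adjusted p = 0.0240) and with only the 2 groups compared (adjusted p = 1.09e-05). PGF, placental growth factor, was not called, with -0.04 (adjusted p = 0.912) and 0.10 (adjusted p = 0.590). ORAI3, a store-operated calcium channel subunit, measured 42.5, 43.6 and 42.7 CPM in DMSO, 35.5, 38.4 and 38.9 in the 5 µM libraries and 40.03, 30.5 and 27.9 in the 10 µM libraries. All treated libraries lay below all DMSO libraries, and the log2 fold change was -0.19 at 5 µM (adjusted p = 0.398) and -0.39 ± 0.12 at 10 µM (adjusted p = 0.0342). Without 10 µM replicate 1 the 5 µM value was -0.19 (adjusted p = 0.0203) and the 10 µM value -0.56 (adjusted p = 5.25e-06). The 10 µM call was lost without any 1 DMSO library, 5 µM replicate 2 or 3, or 10 µM replicate 2 or 3. In the annotation, 52.9% of the exonic bases of ORAI3 are shared with a gene on the same strand. Smaller same-strand shares were annotated for PHLDA3 (19.1%), CSNK1G1 (16.3%), TRIM22 (10.7%), PANK1 (8.13%) and CES2 (2.75%).

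**Figure D3:**
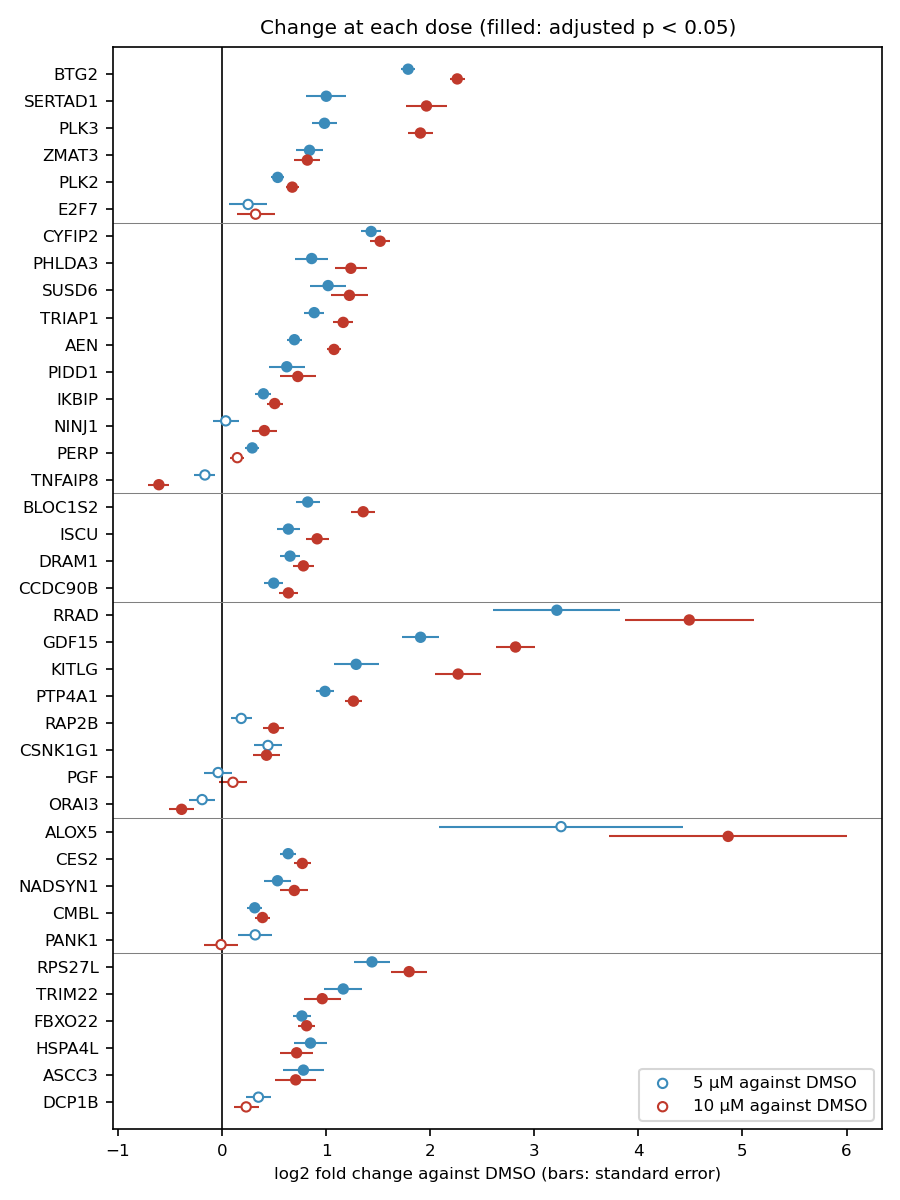
Log2 fold change against DMSO (horizontal axis) with its SE for the 39 tested genes at 5 µM (blue) and 10 µM (red), filled where the adjusted p was under 0.05. Most points lie to the right of 0, the 10 µM point lies right of the 5 µM point for 24 of the 28 genes called higher at both doses, and TNFAIP8 and ORAI3 lie to the left.

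Of the 5 metabolic enzymes, CES2, a carboxylesterase that activates prodrugs, rose by 0.64 and 0.77 on the log2 scale, CMBL, a hydrolase of similar use, by 0.31 and 0.39, and NADSYN1, which makes NAD, by 0.53 and 0.69. The 5 µM calls of CMBL and NADSYN1 were lost when any 1 DMSO or 5 µM library was left out. ALOX5, which starts leukotriene synthesis, had 2 counts over the DMSO libraries, 23 at 5 µM and 73 at 10 µM. The library-scaled ratios to DMSO were 11.1 (95% counting interval 2.74 to 96.9, adjusted p = 0.115) and 34.3 (9.17 to 289, adjusted p = 0.00875), so ALOX5 was called at 10 µM alone and its size is poorly fixed. PANK1, which controls coenzyme A synthesis, has a consensus match near its RefSeq start and was not called over all 9 libraries. Its log2 fold changes were 0.32 (adjusted p = 0.281) and -0.01 (adjusted p = 0.973). Without 10 µM replicate 1 it was called at 5 µM (0.32, adjusted p = 0.0134), as it was with only the 2 groups compared (adjusted p = 0.00820), and not at 10 µM (0.17, adjusted p = 0.175).

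Of the 6 genes of RNA, translation, protein turnover and antiviral defence, 5 were higher at both doses. RPS27L, a ribosomal protein and the p53-induced relative of RPS27 (chromosome 15, 63125872 to 63158021, minus strand, GRCh38), measured 106, 102 and 95.4 CPM in DMSO, 289, 256 and 277 in the 5 µM libraries and 474, 302 and 277 in the 10 µM libraries. Treated libraries lay above DMSO throughout, with log2 fold changes of 1.44 ± 0.17 (adjusted p = 0.000889) and 1.80 ± 0.18 (adjusted p = 5.45e-05), the latter 1.52 without the library that stood apart. TRIM22, an antiviral ubiquitin ligase, rose by 1.16 and 0.96 on the log2 scale. FBXO22, a substrate receptor of an SCF ubiquitin ligase, rose by 0.77 and 0.81. HSPA4L, an HSP110-type chaperone with a consensus match near its RefSeq start, rose by 0.85 and 0.72. ASCC3, a helicase that resolves stalled ribosomes and alkylated DNA, measured 69.2, 76.7 and 72.96 CPM in DMSO, 121, 129 and 126 in the 5 µM libraries and 74.97, 136 and 147 in the 10 µM libraries. It was called at both doses (0.78, adjusted p = 0.0359, and 0.71, adjusted p = 0.0210), but the 5 µM call was lost without any 1 DMSO or 5 µM library and the 10 µM call without any 1 DMSO library, 10 µM replicate 2 or 10 µM replicate 3. DCP1B, an mRNA decapping cofactor that also has a consensus match near its start, was not called over all 9 libraries (0.35, adjusted p = 0.0964, and 0.23, adjusted p = 0.162). It was called at 5 µM without 10 µM replicate 1 (adjusted p = 0.00671) and with only the 2 groups compared (adjusted p = 0.00496).

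A direct comparison of the doses asked whether the response was graded. Between 10 and 5 µM, 7 of the 39 genes were higher at 10 µM, where 2.87% of all genes were, and TNFAIP8 was lower, where 5.53% of all genes were. The 7 were BTG2, PLK3, SERTAD1, AEN, BLOC1S2, GDF15 and KITLG. The log2 differences of 10 over 5 µM were 0.47 ± 0.07 for BTG2 (adjusted p = 0.00279), 0.92 ± 0.12 for PLK3 (adjusted p = 0.00135), 0.98 ± 0.21 for KITLG (adjusted p = 0.0191) and 0.38 ± 0.07 for AEN (adjusted p = 0.0104). For GDF15 the difference was 0.91 ± 0.17 (adjusted p = 0.0115) and for SERTAD1 0.96 ± 0.19 (adjusted p = 0.0143), and these became 0.66 and 0.64 without 10 µM replicate 1. BLOC1S2 gave 0.53 ± 0.11 (adjusted p = 0.0190) and TNFAIP8 -0.44 ± 0.10 (adjusted p = 0.0275). The calls of BTG2 and PLK3 held whichever library was left out. Those of SERTAD1 and BLOC1S2 were lost without any 1 of the 5 µM libraries, those of AEN and KITLG without 5 µM replicate 1 or 3, that of GDF15 without 5 µM replicate 2 or 3, and that of TNFAIP8 without any 1 DMSO or 5 µM library. For the other 21 genes called higher at both doses, a step between the doses was not detected, and RPS27L (0.36 ± 0.17, adjusted p = 0.230) and CYFIP2 (0.09 ± 0.09, adjusted p = 0.606) are examples. Without 10 µM replicate 1, 15 of the 39 genes were called higher at 10 than at 5 µM, where 8.80% of all genes were, and 3 were called lower, where 15.4% of all genes were. The 8 added to the higher calls were E2F7, PLK2, TRIAP1, SUSD6, RRAD, RAP2B, PTP4A1 and ASCC3, and PERP and ORAI3 joined TNFAIP8 among the lower calls.

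Many of these genes have close relatives that are not on the list, and these allowed a gene to be set against another of its own family. Of 33 such pairs covering 23 of the genes, 32 had both genes tested. In these, 4 relatives were called higher at 10 µM and 10 lower, and at 5 µM 1 was higher and 5 lower. Of all genes, 16.4% were higher and 18.0% lower at 10 µM, and 4.40% were higher and 5.81% lower at 5 µM, so the lower calls among the relatives lay above the share over all genes at both doses, as a description of this list. Among the 23 pairs whose p53 target rose at 10 µM, the relative rose in 4, fell in 5 and was not called in 14. Per library, the log2 ratio of target to relative was higher in the 6 TP-472 than in the 3 DMSO libraries for 24 of the 32 pairs, lower for 1 (ORAI3 to ORAI1) and not called for 7. The 24 include 4 pairs whose target was not called higher, TNFAIP8 to TNFAIP8L1, E2F7 to E2F8 and PGF to VEGFB and to VEGFA. In these 4 pairs the relative was called lower at 10 µM (log2 fold changes -1.17, -0.64, -0.51 and -0.48), and TNFAIP8 was itself lower. A higher ratio can therefore reflect a fall of the relative as well as a rise of the target. The exact permutation test used is two-sided, was adjusted over the 32 pairs, and cannot give an unadjusted p below 0.0119 or, here, an adjusted p below 0.0212. The pairs are not independent of each other, because several share a gene. The test pooled both doses and was added after the values had been seen. In 23 of the 32 pairs the target was already called higher at 10 µM in these libraries. The ratios therefore describe the pairs and add no separate support.

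The polo-like kinases moved in opposite directions. PLK1, the mitotic kinase, fell from 154, 147 and 148 CPM in DMSO to 64.2, 65.04 and 59.7 CPM at 10 µM (log2 fold change -1.25 ± 0.07, adjusted p = 1.31e-06), and PLK4, which drives centriole duplication, fell from 29.8, 26.6 and 28.8 to 9.77, 14.2 and 12.2 CPM (-1.24 ± 0.13, adjusted p = 8.74e-05), while PLK2 and PLK3 rose. E2F8, the closest relative of E2F7, fell (-0.64, adjusted p = 0.0148), as did TNFAIP8L1 (-1.17, adjusted p = 0.000207) and ORAI2 (-0.60, adjusted p = 0.000241). GEM, a GTPase of the RRAD family, was the 1 relative that rose by at least 1.5-fold at 10 µM (1.21 ± 0.10, adjusted p = 1.35e-05). RPS27, whose protein closely resembles that of RPS27L, measured 669, 641 and 603 CPM in DMSO, 695, 629.9 and 719.6 in the 5 µM libraries and 1147, 679.9 and 634 in the 10 µM libraries, and was not called (0.10, adjusted p = 0.827, and 0.36, adjusted p = 0.169). The log2 ratio of RPS27L to RPS27 was -2.65 in DMSO and -1.26 over the TP-472 libraries, a difference of 1.39 (adjusted p = 0.0212, exact permutation test, 9 libraries). RPS27L was already called higher in the same libraries, so this ratio only describes the pair. The deposited counts of both genes were whole numbers in all 9 libraries, so no read was visibly divided between them.

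**Figure D4:**
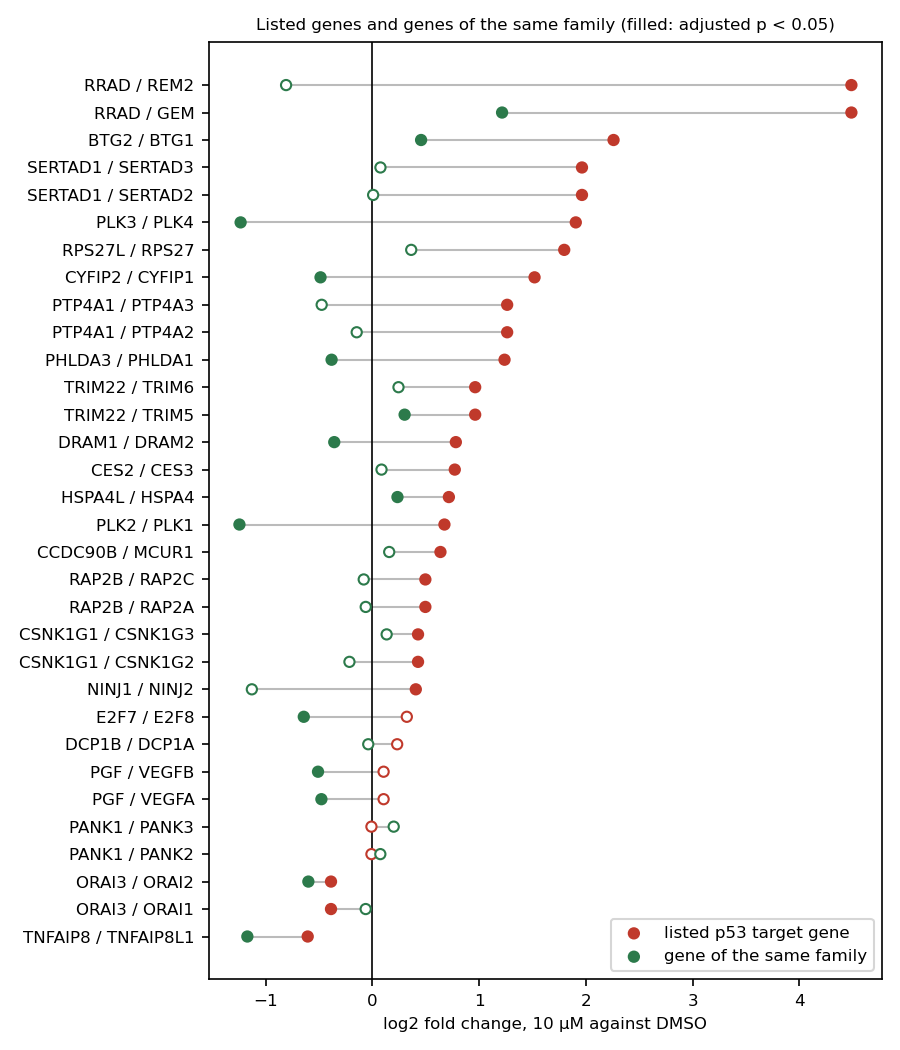
Log2 fold change at 10 µM against DMSO (horizontal axis) for the 32 pairs of a listed p53 target (red) and a relative from the same gene family (green). The red point lies to the right of the green point in all 23 pairs whose target was called higher, pairs picked by the values plotted here. It lies to the left for ORAI3 with ORAI1 and for PANK1 with PANK2 and PANK3. PLK1 and PLK4 are among the relatives farthest to the left, and GEM is farthest to the right.

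Some of the targets share a short stretch of DNA with a gene read in the opposite direction, and these neighbours were picked after the values had been seen. A protein-coding neighbour with its start within 1000 bases, head to head, was annotated for PIDD1 (RPLP2), TRIAP1 (GATC), IKBIP (APAF1), CES2 (CIAO2B) and NADSYN1 (DHCR7), and 4 of the 5 neighbours were tested under those symbols. At 10 µM the 4 targets with a tested neighbour all rose, whereas DHCR7, an enzyme of cholesterol synthesis with its start 241 bases from that of NADSYN1, was lower (log2 fold change -0.40, adjusted p = 0.0208) and the other neighbours were not called. GATC, with its start 26 bases from that of TRIAP1, gave 0.27 (adjusted p = 0.0853), RPLP2 gave 0.42 (adjusted p = 0.104), and APAF1, 28 bases from IKBIP, gave -0.06 (adjusted p = 0.903).

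The better-known p53 targets were also mostly higher. Of 25 listed targets from the families left out above and from p53's own feedback circuit, 24 were tested, and 20 were higher at 5 µM and 21 at 10 µM, with none lower at either dose by edgeR (0 also at an unadjusted p under 0.05, and 0 with DESeq2 and limma-voom). Their median log2 fold changes were 1.19 and 1.60, and 10 of the 24 were also higher at 10 than at 5 µM. Among all genes tested, 4.40% were called higher at 5 µM, 16.4% at 10 µM and 2.87% at 10 over 5 µM. These targets were chosen with earlier results of these data known, so the counts describe this list. The 3 that were not called at 10 µM were CCNG1, POLK and TNFRSF10C, named here after their values had been seen.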

How the data were processed

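RNA sequencing was done on 9 libraries of A375 cells, 3 each of DMSO, 5 µM and 10 µM TP-472. The labels describe oligo-dT selection and strand-marking chemistry, whereas the series text describes ribosomal RNA depletion. The authors deposited expected counts per gene symbol, which are fractional where reads were divided between genes (10.6–13.8% of values per library). The submitters' processing notes name Bowtie2 2.1.0, RSEM 1.2.15 and hg38, but the annotation and any use of strand are not stated. The whole table was rounded, filtered with filterByExpr, scaled with TMM and tested by edgeR 4.0.16 (R 4.3.3; quasi-likelihood F test, 3 groups in 1 fit) with Benjamini-Hochberg adjustment over 16417 genes. The replicates of a group differed by more than sampling noise (chi-square per degree of freedom 5.35 to 318), so none was counted as a duplicate. Alternatives used other scaling factors and filters, DESeq2 1.42.0, limma-voom (limma 3.58.1), the replicate number, fewer samples and a fold minimum of 1.5, and fits were tested on simulated data. Values are given in every library for the 12 genes with the largest change at 10 µM among those called at both doses with a mean of at least 1 CPM, for genes that fell and for genes called between doses, and PERP, E2F7 and ASCC3 were added after their values were seen. So were the neighbours and the exact test of ratios, which used log2(CPM + 0.5). The 40 genes, the relatives and the further targets were chosen with earlier results of these data known. Positions and overlaps come from GENCODE v29 (GRCh38), promoter windows from RefSeq (GRCh38.p14). Intervals cover counting error only.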

Additional observations from a re-analysis of the deposited data

How the results depend on the processing

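Among the 39 tested genes, higher calls outnumbered lower calls against DMSO at both doses under every alternative tried. Across all alternatives, between 22 and 34 of the genes were called higher at 5 µM (29 as reported) and between 27 and 33 at 10 µM (32 as reported), and the further p53 targets stayed between 19 and 22. Genes called higher at 10 than at 5 µM numbered 12 with DESeq2, 2 with only the 2 groups compared, 4 with a fold change of at least 1.5 as well, and 2 to 15 when 1 library was left out, against 7. Genes called lower between doses numbered 0 with the replicate block, with only the 2 groups or with the fold minimum, and 0 to 3 with 1 library left out, against 1. Genes called lower at 10 µM numbered 1 with upper-quartile factors, with only the 2 groups or with the fold minimum, and 1 to 2 with 1 library left out, against 2. At 5 µM 1 gene was called lower with only the 2 groups compared, and 0 to 1 with 1 library left out, against 0. Among the relatives at 5 µM, those called higher numbered 5 with only the 2 groups, 0 with the fold minimum and 0 to 3 with 1 library left out, against 1, and those called lower 3 with the replicate block, 13 with only the 2 groups, 3 with the fold minimum and 2 to 13 with 1 library left out, against 5. Among the relatives at 10 µM, those called higher numbered 2 with no filter, 2 with only the 2 groups, 1 with the fold minimum and 2 to 6 with 1 library left out, against 4, and those called lower 5 with the fold minimum and 7 to 13 with 1 library left out, against 10. The causes were not tested, and some of these fits had fewer samples.

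The replicate numbers did not pair the samples, since the correlations of same-numbered deviations ran from -0.0493 to 0.0322. With the replicate block, 28, 32 and 7 of the genes were called higher at 5 µM, at 10 µM and between the doses. That fit lost the 5 µM call of NADSYN1 and the lower call of TNFAIP8 between the doses.

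No called value changed direction. The values not called as reported that changed sign were, for PANK1 at 10 µM, 0.00053 with RLE size factors, 0.029 with upper-quartile factors, 0.010 with a 1 CPM filter, 0.00057 with DESeq2 and -0.16 to 0.17 with 1 library left out. Between doses, CSNK1G1 gave 0.014 with upper-quartile factors, 0.00095 with the 1 CPM filter, 0.00047 with only the 2 groups and -0.12 to 0.14 with 1 library left out, and ZMAT3 gave 0.0074 with upper-quartile factors and -0.13 to 0.12. With 1 library left out, the between-dose values ran from -0.10 to 0.30 for E2F7, -0.14 to 0.23 for PIDD1, -0.026 to 0.26 for NADSYN1, -0.25 to 0.17 for ASCC3 (0.17 without 10 µM replicate 1, adjusted p = 0.0282 by edgeR) and -0.011 to 0.11 for FBXO22, and the 5 µM values from -0.029 to 0.074 for NINJ1 and -0.11 to 0.023 for PGF. The low depth behind ALOX5 and RRAD in DMSO limits what their fold changes can show.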
